A study of Mus musculus with 6 samples.

Results

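The Rab genes encode small GTPases that sit on membranes and switch between a GDP-bound resting state and a GTP-bound active state. They are switched on by guanine nucleotide exchange factors (GEFs), switched off by GTPase-activating proteins (GAPs), and in the active state bind effectors that tether, move and fuse vesicles. Each Rab marks a set of membranes, so that in a macrophage different Rabs serve phagosomes, endosomes, lysosomes, the Golgi and the route to the cell surface, including the traffic of the LPS receptor TLR4. Their transcripts were measured here in bone marrow-derived macrophages, cells grown from mouse marrow.

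All cells were labelled wild type, and the 3 groups had 2 libraries each. They were a control, a group treated with lipopolysaccharide (LPS, a component of bacterial membranes), and a group treated with both LPS and HACA (LPS+HACA). HACA is not spelled out in the labels, which also give no dose, time or animal age and do not say whether the replicates were separate cultures or animals. The p-values therefore measure only the spread between these libraries, which may be technical. The Rab genes were taken as the protein-coding genes with a Rab symbol (Rab and a number, with an optional letter) whose counts summed over the 6 libraries reached 60. Of 59 such symbols among 55263 annotated genes, 42 reached it and 17 did not. They were thus chosen by their summed counts, so their levels are a description. Just inside the minimum were Rab2b and Rab34 with 64 counts and Rab33a with 65, and just outside were Rab26 with 57 and Rab36 with 56. For 7 of the 42 the counts outside their highest group came to less than 60, so they entered only through that group: Rab3a (103 of 126 counts in control), Rab42 (40 of 67), Rab34 (35 of 64), Rab2b (28 of 64) and Rab33a (26 of 65) through control, and Rab30 (44 of 69) and Rab38 (36 of 82) through LPS. For these 7 genes a difference between groups was partly fixed by the choice, and it is given as a description. The 42 genes all passed the filter on low counts of the test below. The 17 others had 0 to 57 counts, with 0 for Rab3b, Rab9b and Rab17, and were not analysed further.

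Total counts were 12529874 to 15379496 per library, and replicates correlated across genes at r = 0.941 to 0.961. All 10 macrophage markers were detected, with a summed level of 32257 to 55159 CPM (counts scaled to a common library size, with TMM factors between libraries). T and NK cell markers summed to at most 0.59 CPM (Cd3e, Cd8a and Ncr1 at 0) and mast cell markers to at most 0.3 (Mcpt4 and Fcer1a at 0). B and plasma cell markers summed to 12.0 and 13.6 CPM in the control libraries, 3.15 and 3.76 with LPS, and 13.7 and 8.25 with LPS+HACA (Cd79b at 0). Stromal markers were higher in replicate 1 (47.9, 32.6 and 50.4 CPM for control, LPS and LPS+HACA) than in replicate 2 (1.72, 2.6 and 1.42). Neutrophil markers (S100a9 and Ly6g at 0) were higher in replicate 2 (39.9, 64.2 and 37.0 CPM) than in replicate 1 (7.59, 13.8 and 4.98). Proliferation genes summed to 766 and 216 CPM in control, 1975 and 1087 with LPS and 1481 and 399 with LPS+HACA. The part of these differences in the results below was not tested, and in bulk RNA fewer cells of a type and less RNA per cell cannot be told apart.

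The start sites of 4 genes are printed because these genes carry the results: Rab10, Rab5a and Rab32 are among the largest rises with LPS at a high level, and Rab31 was the most abundant gene to fall. The windows hold 250 bases before and 50 after the annotated RefSeq start on GRCm38.p6, 5′ to 3′ on the gene's strand. They lie at chr12:3309920-3310219 on the minus strand for Rab10, at chr17:53478984-53479283 on the plus strand for Rab5a, at chr10:10558158-10558457 on the minus strand for Rab32, and at chr17:65772703-65773002 on the minus strand for Rab31. Capitals mark every match to the motifs named after them.
Rab10: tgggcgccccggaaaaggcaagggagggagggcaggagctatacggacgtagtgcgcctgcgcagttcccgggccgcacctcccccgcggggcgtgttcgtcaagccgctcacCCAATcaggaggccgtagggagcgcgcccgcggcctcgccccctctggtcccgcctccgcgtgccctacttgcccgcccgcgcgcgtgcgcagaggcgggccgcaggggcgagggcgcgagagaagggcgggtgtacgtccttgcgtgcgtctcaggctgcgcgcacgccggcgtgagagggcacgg
Rab5a: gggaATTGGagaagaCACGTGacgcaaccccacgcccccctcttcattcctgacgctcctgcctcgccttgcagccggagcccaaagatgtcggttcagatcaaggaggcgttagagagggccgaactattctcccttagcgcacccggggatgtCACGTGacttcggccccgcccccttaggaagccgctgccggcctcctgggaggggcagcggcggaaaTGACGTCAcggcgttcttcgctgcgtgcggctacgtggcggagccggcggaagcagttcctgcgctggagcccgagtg
Rab32: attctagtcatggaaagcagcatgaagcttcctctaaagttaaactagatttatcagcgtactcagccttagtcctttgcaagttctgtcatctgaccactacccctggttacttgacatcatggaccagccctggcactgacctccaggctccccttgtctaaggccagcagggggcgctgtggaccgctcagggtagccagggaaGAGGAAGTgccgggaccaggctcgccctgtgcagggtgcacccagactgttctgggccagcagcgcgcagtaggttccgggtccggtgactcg
Rab31: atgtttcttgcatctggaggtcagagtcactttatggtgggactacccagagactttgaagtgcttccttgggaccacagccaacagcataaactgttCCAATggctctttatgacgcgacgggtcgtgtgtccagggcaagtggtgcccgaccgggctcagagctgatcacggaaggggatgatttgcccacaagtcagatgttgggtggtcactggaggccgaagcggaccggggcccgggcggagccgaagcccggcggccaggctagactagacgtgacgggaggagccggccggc

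The motifs, chosen after the values were seen, were searched on both strands: the CCAAT box (CCAAT), the E-box (CACGTG), the cAMP response element (TGACGTCA), a PU.1-type ETS site (GAGGAAGT), the AP-1 site (TGANTCA), an interferon response element and the NF-kB consensus. No motif contains another. RefSeq windows were found for 36 of the 42 genes, and none for Rab7b, Rab30, Rab2a and Rab4a among the genes that changed. Rab10 and Rab31 each held a CCAAT box. They were among 20 of the 36 genes that held it in a window, and 37.41% of all 32851 RefSeq windows held it. The Rab genes are counted by gene and all windows singly, so these shares are not of the same unit. Rab5a held a CCAAT box on the opposite strand, a pair of E-boxes (7.15% of all windows hold one) and a cAMP response element (1.79%). The Rab32 window held the ETS site, which 3.2% of all windows hold. Of the genes that changed with LPS and had a window, the CCAAT box was in 5 of 8 risen genes and 3 of 7 fallen genes. The 3 were Rab31, Rab39 and Rab3a, of which Rab3a entered only through control. AP-1 and NF-kB matches were in none of these 15 genes, against 7.81% and 4.51% of all windows. The interferon element was in 1 of them, Rab19, against 3.44% of all windows. A match is a description of these letters, not a bound site.

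The deposited counts are per transcript and hold almost only reads from bases annotated to a single transcript. Each gene sum was therefore measured over those bases: 95.9% of the exonic bases of Rab10, but 12.8% for Rab5c and 9.66% for Rab7. For 32 of the 42 genes at least 50% of the counts lay on protein-coding transcripts. For 10 genes less did, and for 7 of these (Rab1a, Rab4b, Rab12, Rab14, Rab24, Rab28 and Rab40c) less than 1% did. Rab14 had 96.8% of its counts on retained-intron transcripts, Rab23 90.9% and Rab3a 56.4%. Values for the 7 genes come from bases annotated to transcripts other than coding ones and do not measure the coding messenger RNA. Those for Rab3a and Rab23 mix bases of coding and other transcripts. Which RNA molecules gave these reads was not tested. Near-identical copies also matter: Rab7 had 283 counts and its processed pseudogene Rab7-ps1, 98.4% identical over 622 bases, had 2050. Rab11b, with no base of its own, had 2 counts while the pseudogene Rab11b-ps2 had 1883, so the levels of Rab7 and Rab11b are uncertain.

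**Figure D1:**
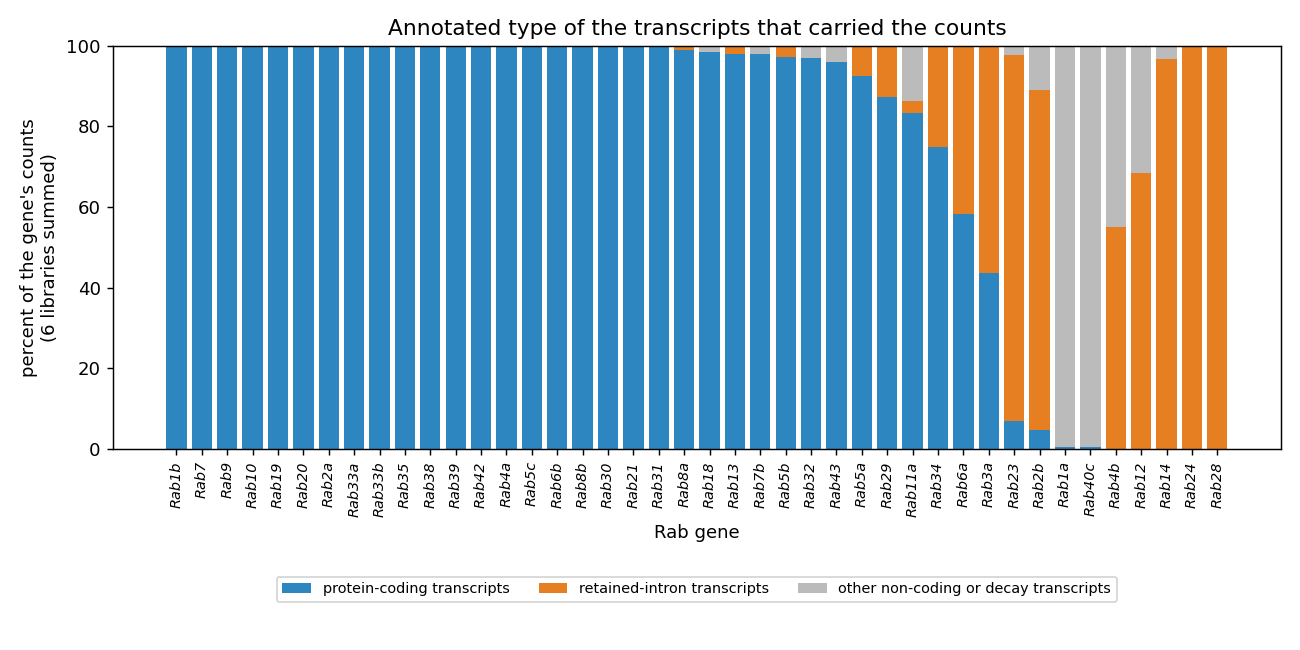
Share of each gene's counts, summed over the 6 libraries, on protein-coding (blue), retained-intron (orange) and other (grey) transcripts, for the 42 Rab genes on the horizontal axis. Blue makes up at least 50% of the bar in 32 genes and less in the 10 genes at the right, from Rab3a on.

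Measured as CPM per kilobase of single-transcript bases and averaged over the groups, Rab10 stood highest at 162, followed by Rab8b at 153, Rab32 at 128, Rab31 at 115 and Rab2a at 107. Rab5b followed at 95.4, Rab1b at 70.8, Rab35 at 49.6, Rab20 at 47.4 and Rab8a at 37.8. With the full exonic length as the divisor, 9 of these 10 stayed among the highest 10. Rab8b, Rab10 and Rab31 together held 44.7% to 50.6% of the summed CPM of the family in every library, and 21 genes had a mean under 10 CPM in each group. In control Rab31 stood highest, at 158 CPM per kilobase, above Rab8b at 146 and Rab10 at 89.2. In LPS Rab10 stood highest at 276, followed by Rab32 and Rab8b at 207 each, and in LPS+HACA Rab10 at 121, Rab31 at 116 and Rab8b at 106 were close together. The summed family level was 3181 and 3151 CPM in control, 4655 and 4610 with LPS and 2907 and 2928 with LPS+HACA. Scaled by library totals alone these sums were 3676 and 3658, 3776 and 3115, and 3440 and 3333, so the separation of LPS from control in the sum depended on the scaling.

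The first comparison asked how the Rab genes differed between LPS and control cells. With LPS, Rab10, Rab5a, Rab5c, Rab32, Rab11a, Rab8a, Rab33b, Rab2a and Rab35 rose, and Rab31, Rab7b, Rab6b, Rab39, Rab14, Rab4a, Rab19 and Rab23 fell. The scarce Rab30 was also past the threshold as higher and Rab3a as lower, but both entered the family only through the group where they were high. With them these 10 higher and 9 lower genes make 45.2% of the family at an adjusted p under 0.05 (edgeR quasi-likelihood test, Benjamini-Hochberg over all 17113 genes), where 30.1% of all genes passed, 15.9% higher and 14.3% lower. Among the 35 genes that reached the minimum without their highest group, 9 were higher and 8 lower (48.6%). The median log2 fold change of the 42 was 0.21, and that of all genes −0.05. LPS and control libraries did not overlap for 36 of the 42 genes, 20 higher and 16 lower, against 66.7% of all genes (31.4% higher and 35.3% lower). This count and the median include the genes that entered only through their highest group. Of those, Rab30 and Rab38 were among the higher, and Rab3a, Rab42, Rab34 and Rab2b among the lower, so the count is a description. Scaling by library totals moved the median of all genes to −0.69, gave 2 Rab genes higher (Rab10 and Rab30) and 13 lower, and turned the sign of 9 of the 42, none of them a called gene. Under it the other 8 risen genes had adjusted p = 0.0696 (Rab5a) to 0.689 (Rab35). Of all 17113 genes, library totals called 1417 higher and 5111 lower, and a block on the replicate number 3506 and 3384. Fits without a control library leave 1 library in that group, and calls of all genes were also lost in them. With the replicate number as a block 17 were higher and 10 lower, and without control replicate 1 or 2 there were 3 and 2 higher and 4 and 5 lower.

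**Figure D2:**
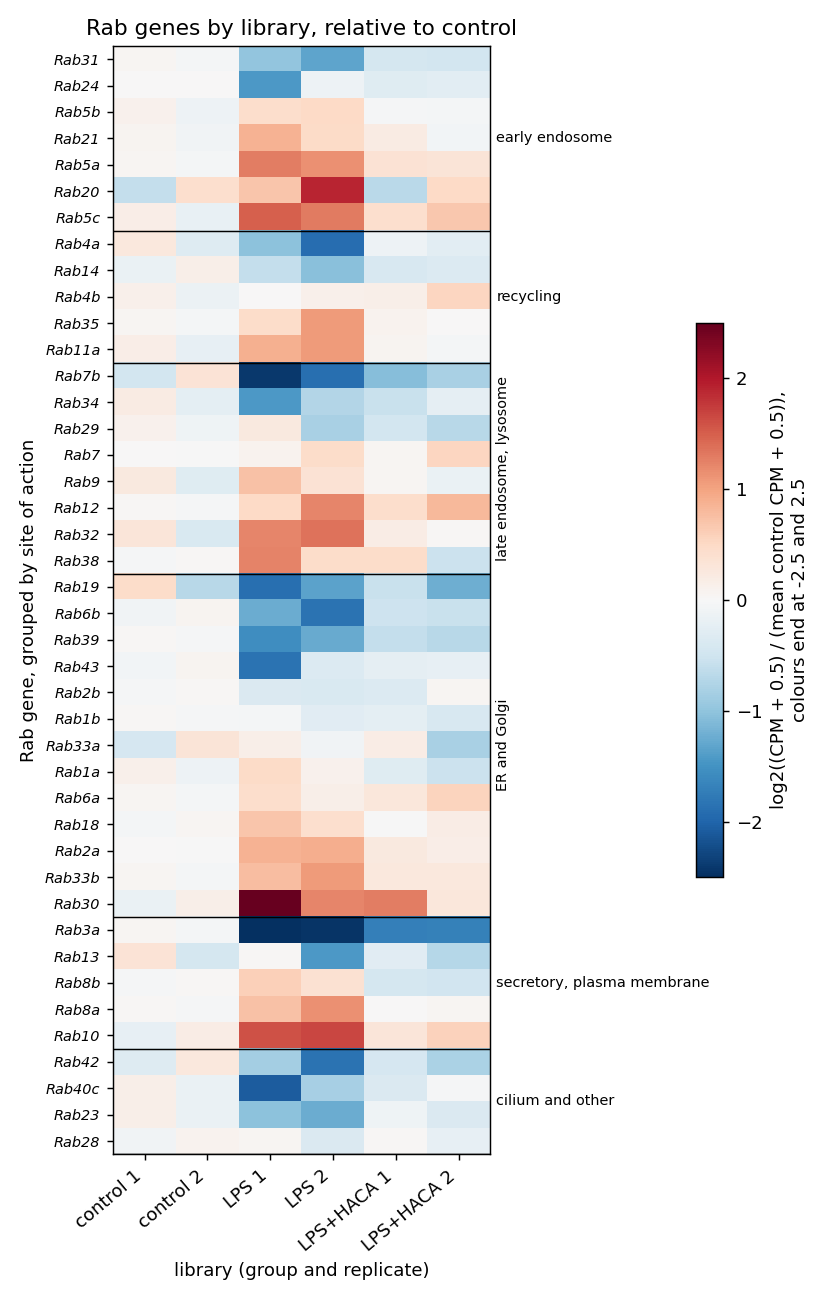
Level of each of the 42 Rab genes (rows, by site of action) in each library (columns), as log2 of CPM plus 0.5 relative to the control mean plus 0.5. Red is above and blue below control: the LPS columns hold the strong colours, with Rab3a and Rab7b darkest blue, and the LPS+HACA columns are paler.

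The second comparison asked what differed when HACA was given with LPS. Rab10, Rab32, Rab11a, Rab8b, Rab8a, Rab5a and Rab2a were lower in LPS+HACA than in LPS, and no Rab gene passed the test as higher. These 7 make 16.7% of the family, close to the 13.4% of all genes that passed (7.67% lower, 5.74% higher). The median log2 fold change was −0.21, and 0.06 for all genes, and 22 of the 42 Rab genes had an unadjusted p under 0.05, where 30.8% of all genes did. The libraries did not overlap for 32 of the 42, 15 higher and 17 lower, against 57.7% of all genes (30.3% higher and 27.3% lower). Of the genes that entered only through their highest group, Rab3a, Rab42, Rab34 and Rab2b were among these higher and Rab38 among the lower. The count and the median with them are a description. DESeq2 called 3 higher and 8 lower, limma-voom 0 and 7, and the replicate block 4 and 13, with Rab7b (adjusted p = 0.0027), Rab31 (0.0139), Rab6b (0.0149) and Rab4a (0.0276) higher. The block added Rab20 (adjusted p = 0.000609), Rab21 (0.0257), Rab35 (0.0321), Rab33b (0.0368), Rab9 (0.046) and Rab5b (0.0472) as lower. Scaling by library totals moved the median of all genes to 0.70, gave 9 higher and 0 lower, and turned the sign of 8 of the 42, none of them called. The 7 called genes then had adjusted p = 0.101 (Rab10) to 0.908 (Rab2a). Of all 17113 genes, library totals called 3501 higher and 522 lower, and the block 1955 and 2356. DESeq2 called 1221 and 1799 of all genes, and limma-voom 588 and 1249. On coding transcripts alone 2 were higher and 4 lower, without Rab11a (adjusted p = 0.0515), Rab8a (0.0595) and Rab2a (0.0819). Of all 9089 genes tested on coding transcripts, 407 were higher and 638 lower. Without LPS+HACA replicate 1 the log2 fold changes of the 7 called genes were −1.23 (Rab32) to −0.70 (Rab2a). Without LPS+HACA replicate 2 they were −1.33 (Rab10) to −0.64 (Rab2a). These fits leave 1 library in a group, and calls of the Rab genes and of all genes were lost in them.

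The third comparison set LPS+HACA against control, and no Rab gene passed the test in edgeR, where 1.15% of all genes did. DESeq2 and limma-voom also called none, while of all 17113 genes they called 467 higher and 199 lower, and 82 and 37. DESeq2 gave no adjusted p here for Rab2b, Rab30, Rab33a, Rab34, Rab38, Rab3a and Rab42, so it did not assess them. In edgeR 4 of the 42 Rab genes had an unadjusted p under 0.05, a share no higher than the 11.7% of all genes. Fold changes on the log2 scale lay between −2.29 and 2.27, with a median of −0.15, and 0.00 for all genes. These ends were Rab3a and Rab30, which entered only through control and LPS. Without the genes that entered only through their highest group, the range was −1.04 (Rab19) to 0.67 (Rab12). For 23 of the 42 genes the LPS+HACA and control libraries did not overlap, against 46.5% of all genes. Rab30, Rab3a and Rab42, which entered only through their highest group, were among them. With the replicate block Rab7b was lower in LPS+HACA (−0.90, adjusted p = 0.0314), and so was Rab3a, which entered through control. Of all 17113 genes the block called 628 higher and 307 lower in this comparison. Rab3a was also past the threshold without LPS replicate 1 and without LPS replicate 2. The 3 comparisons share libraries, so their values for each gene are given side by side below and are not independent.

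Among the Rabs of early endosomes and phagosomes, 2 of 7 genes rose with LPS and 1 fell (42.9%, where 30.1% of all genes passed). Rab5a, which drives the fusion of early endosomes, was at 118 and 109.6 CPM in control, 279 and 254 with LPS and 146 and 142 with LPS+HACA. Both LPS libraries stood above all others, and LPS+HACA lay just above control. The log2 fold change was 1.23 ± 0.20 (SE, adjusted p = 0.00314, edgeR) with LPS and −0.89 ± 0.19 (adjusted p = 0.0248) between LPS+HACA and LPS. Rab5c, another form of the same switch, was scarce at 2.51 and 1.85 CPM in control, 7.09 and 6.07 with LPS and 3.10 and 3.79 with LPS+HACA. Its LPS libraries were again the highest, and it rose by 1.59 ± 0.35 (adjusted p = 0.0118), while the change of −0.93 ± 0.34 with HACA did not pass (adjusted p = 0.107). Rab31, which carries cargo between the Golgi network and endosomes, had 589 and 546 CPM in control, 288 and 229 with LPS and 416 and 415 with LPS+HACA. The groups did not overlap, with LPS lowest and LPS+HACA between the others. Rab31 changed by −1.14 ± 0.20 with LPS (adjusted p = 0.00509) and by 0.69 ± 0.20 with HACA (adjusted p = 0.0609, and 0.0139 with the replicate block). The LPS call of Rab31 held in each of 14 alternatives, and that of Rab5a in all but library totals (adjusted p = 0.0696). Rab5c was not called without control replicate 1 (adjusted p = 0.061) or 2 (0.109), and the HACA call of Rab5a was lost without either control library (0.0761 and 0.0754) or either LPS+HACA library (0.157 and 0.148).

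Rab20, a Rab of maturing phagosomes, differed between replicates in every group. It had 20.3 and 41.9 CPM in control, 50.7 and 118 with LPS and 19.2 and 44.2 with LPS+HACA. Replicate 2 was at least 1.5 times replicate 1 each time, which held for no other Rab gene, while each LPS library was above all control libraries. The log2 fold change of 1.44 ± 0.59 with LPS did not pass (adjusted p = 0.112), nor did −1.41 ± 0.59 with HACA (adjusted p = 0.161). With the replicate block both passed, at 1.41 (adjusted p = 0.000227) and −1.41 (adjusted p = 0.000609). Both also passed with no count filter (adjusted p = 6.64e-05 and 0.000246). With DESeq2 the LPS change passed (0.0307) and the HACA change did not (0.0518). The neutrophil markers above were also higher in each replicate 2, and their part in Rab20 was not tested. Rab5b, the most abundant Rab5 form, was at 332 and 280.2 CPM in control, 417 and 432 with LPS and 300.0 and 296 with LPS+HACA. Its LPS libraries were highest under TMM, with 0.47 ± 0.19 (adjusted p = 0.101), but under library totals the sign turned to −0.17. With the block Rab5b was called in both comparisons (adjusted p = 0.0431 and 0.0472).

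Of the 5 recycling Rabs, 2 rose and 2 fell with LPS (80.0%, where 30.1% of all genes passed). Rab11a, which returns cargo from the recycling endosome, had 35.0 and 26.9 CPM in control, 57.7 and 65.6 with LPS and 32.3 and 29.9 with LPS+HACA. LPS stood apart from the other 4 libraries, which overlapped. The changes were 0.99 ± 0.23 with LPS (adjusted p = 0.0158) and −0.99 ± 0.23 with HACA (adjusted p = 0.0324). Rab35, a Rab of fast recycling and of the plasma membrane, had 75.3 and 71.2 CPM in control, 100.2 and 153 with LPS and 77.9 and 73.8 with LPS+HACA. Its LPS libraries were highest but far apart, with 0.79 ± 0.25 (adjusted p = 0.0466) and, with HACA, −0.74 ± 0.25 (adjusted p = 0.0892, and 0.0321 with the replicate block). Rab4a, which serves rapid return to the surface, had 4.77 and 3.04 CPM in control, 1.67 and 0.674 with LPS and 3.52 and 3.18 with LPS+HACA. LPS was lowest, with −1.73 ± 0.50 (adjusted p = 0.035) against control. With HACA Rab4a changed by 1.51 ± 0.51 (adjusted p = 0.0873, and 0.0276 with the replicate block). Rab14, a Rab of the Golgi and endosomes counted here on retained-intron transcripts, had 79.1 and 98.0 CPM in control, 58.6 and 42.6 with LPS and 67.3 and 70.2 with LPS+HACA. The groups did not overlap, and the LPS change was −0.81 ± 0.24 (adjusted p = 0.0392). None of these 4 LPS calls held without control replicate 1 (adjusted p = 0.063 for Rab11a, 0.191 for Rab35, 0.194 for Rab4a and 0.0951 for Rab14) or without control replicate 2 (0.145, 0.223, 0.0768 and 0.243). Rab35 did not pass on coding transcripts alone (0.0894) or with limma-voom (0.0514). Rab35, Rab4a and Rab14 were also not called without LPS replicate 2 (adjusted p = 0.167, 0.106 and 0.115) or without an LPS+HACA library (0.077 and 0.0764 for Rab35, 0.052 and 0.0525 for Rab4a, 0.0676 and 0.0731 for Rab14). The HACA call of Rab11a was lost without either control library, LPS replicate 2 or either LPS+HACA library (adjusted p = 0.0588 to 0.173).

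Of the 8 Rabs of late endosomes and lysosomes, Rab32 rose and Rab7b fell with LPS (25.0%, where 30.1% of all genes passed). Rab32, which acts on lysosome-related organelles and bacterial phagosomes, had 153 and 95.6 CPM in control, 289.5 and 319 with LPS and 142 and 127 with LPS+HACA. The LPS libraries were highest, and those of control and LPS+HACA overlapped. Rab32 changed by 1.29 ± 0.26 with LPS (adjusted p = 0.00839) and by −1.18 ± 0.26 with HACA (adjusted p = 0.0258). Rab7b, known in macrophages for routing TLR4 to lysosomes, had 50.2 and 88.6 CPM in control, 12.7 and 18.5 with LPS and 32.7 and 39.3 with LPS+HACA. All 3 groups were apart, with LPS lowest. Its changes were −2.15 ± 0.34 with LPS (adjusted p = 0.00308) and 1.21 ± 0.33 with HACA (adjusted p = 0.0508, and 0.0027 with the replicate block). The LPS call of Rab7b held in each of 14 alternatives. Rab32 was not called with LPS without control replicate 2 (adjusted p = 0.0774), nor with HACA without LPS+HACA replicate 1 (0.119) or 2 (0.135). Rab7 itself, the main late endosome Rab, was at 2.91 to 4.46 CPM in all libraries over its few single-transcript bases, with 0.33 ± 0.37 for LPS (adjusted p = 0.536).

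**Figure D3:**
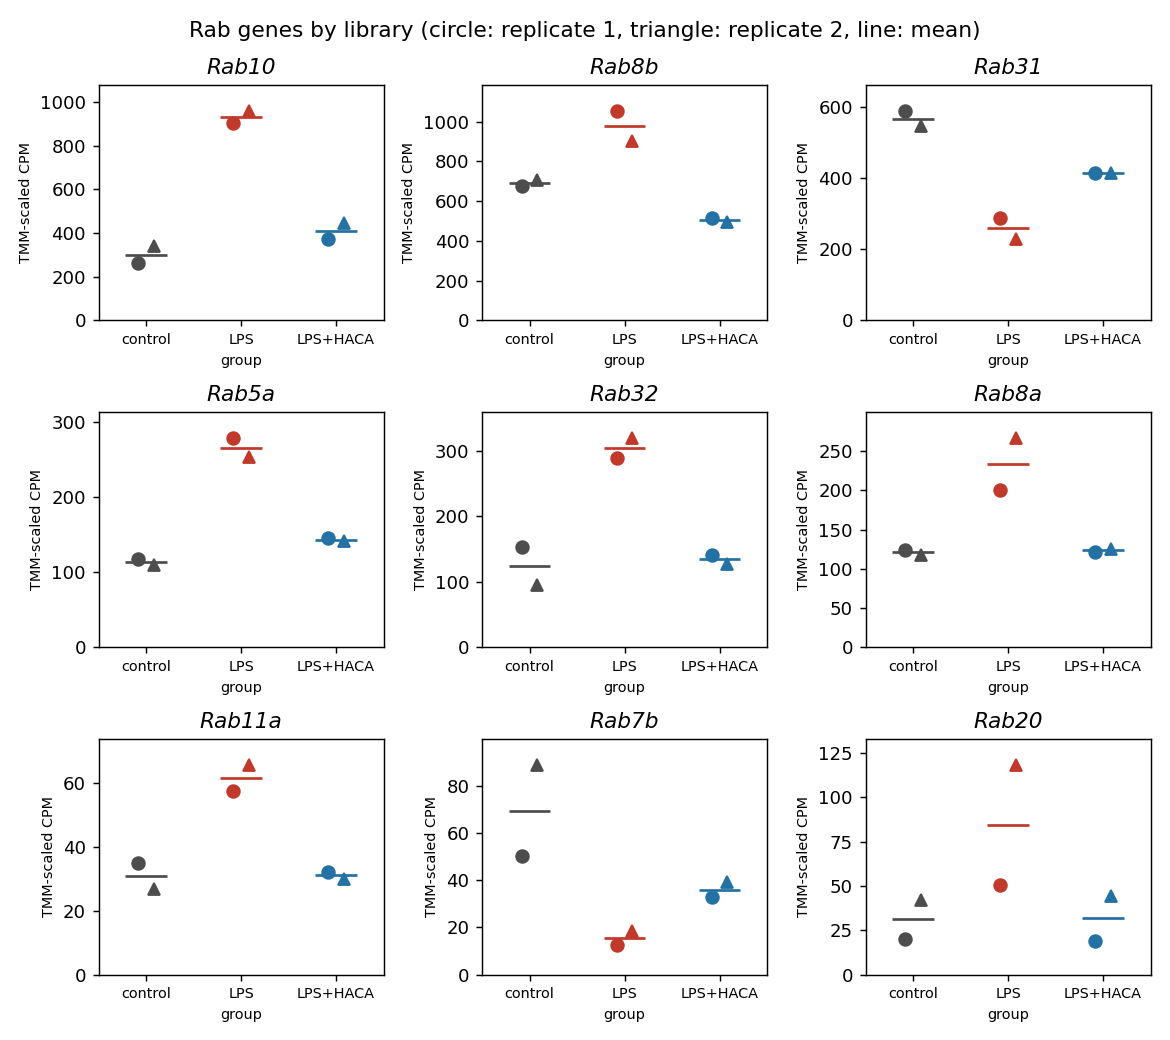
TMM-scaled CPM (vertical axes from 0, a scale per gene) of 9 Rab genes in each library, by group, with circles for replicate 1, triangles for replicate 2 and lines for the mean of 2. Both LPS points lie above control and LPS+HACA for Rab10, Rab8b, Rab5a, Rab32, Rab8a, Rab11a and Rab20 and below them for Rab31 and Rab7b, while Rab20 shows replicate 2 above replicate 1 in every group.

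Among the 13 Rabs of the endoplasmic reticulum and Golgi, 3 were past the threshold as higher with LPS, Rab30 among them, and 3 as lower (46.2%, where 30.1% of all genes passed). Since Rab30 entered only through LPS, this share is a description. Rab2a, which acts between these compartments, had 171 and 169.5 CPM in control, 312 and 319 with LPS and 203 and 190.5 with LPS+HACA. The 3 groups were apart, LPS highest, with 0.89 ± 0.19 for LPS (adjusted p = 0.01) and −0.68 ± 0.19 for HACA (adjusted p = 0.0498). Rab33b, a Golgi Rab that also binds the autophagy factor Atg16l1, had 24.0 and 22.2 CPM in control, 39.8 and 48.5 with LPS and 27.8 and 27.9 with LPS+HACA. It was highest in LPS and rose by 0.94 ± 0.23 (adjusted p = 0.0175), and it passed as lower with HACA with the replicate block (adjusted p = 0.0368) and with DESeq2 (0.0461). Its transcripts share repeats of about 200 bases (97% identity or more) with many other genes, so part of its counts may be uncertain. Rab30, a Golgi Rab, had 0.0627 and 0.198 CPM in control, 3.35 and 0.963 with LPS and 1.03 and 0.271 with LPS+HACA. LPS was above control in both libraries, which differed widely. In counts this was 44 in LPS, 4 in control and 21 in LPS+HACA, and without the LPS libraries Rab30 would not have entered the family.

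The 3 Golgi Rabs that fell with LPS were Rab6b, Rab39 and Rab19. Rab6b, a form of the Rab6 retrograde transport switch best known from neurons, had 28.0 and 31.3 CPM in control, 12.2 and 7.90 with LPS and 20.5 and 20.1 with LPS+HACA. The groups were apart with LPS lowest. The changes were −1.56 ± 0.28 (adjusted p = 0.00531) and, with HACA, 1.01 ± 0.28 (adjusted p = 0.0508, and 0.0149 with the replicate block). Rab39, a Rab of the Golgi and endosomes, had 9.03 and 8.60 CPM in control, 2.66 and 3.37 with LPS and 5.65 and 5.27 with LPS+HACA. It showed the same order and fell with LPS by 1.54 ± 0.31 on the log2 scale (adjusted p = 0.00779). Rab19 had 4.58 and 1.79 CPM in control, 0.492 and 0.963 with LPS and 2.004 and 1.08 with LPS+HACA. Its control and LPS+HACA libraries overlapped, and the LPS change was −2.11 ± 0.66 (adjusted p = 0.0435). Rab1b, the abundant switch of transport from the endoplasmic reticulum to the Golgi, had 124 and 118 CPM in control, 117 and 98.6 with LPS and 102 and 90.9 with LPS+HACA. The groups lay close together, and no change of Rab1b passed under TMM (adjusted p = 0.585 for LPS), while under library totals it was called lower with LPS (−0.80, adjusted p = 0.0381). The call of Rab6b held in each of 14 alternatives, while without control replicate 1 or 2 those of Rab2a (adjusted p = 0.0956 and 0.0941), Rab33b (0.112 and 0.137) and Rab39 (0.0611 and 0.0572) did not. Rab19 was not called without control replicate 1 (adjusted p = 0.293), LPS replicate 1 (0.129) or LPS replicate 2 (0.0554), with limma-voom (0.111) or with library sizes from protein-coding genes (0.0507). The HACA call of Rab2a was lost without any one library other than LPS replicate 1 (adjusted p = 0.0717 to 0.246) and with no count filter (0.0951).

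Of the 5 Rabs on the route to the plasma membrane, Rab10 and Rab8a rose with LPS, and 3 were lower with HACA (60%, where 13.4% of all genes passed). Rab3a was past the threshold as lower with LPS, but it entered the family only through control. The share for LPS with Rab3a, 60% where 30.1% of all genes passed, is therefore a description. Rab10, which carries TLR4 to the macrophage surface, had 261 and 339.9 CPM in control, 904 and 959 with LPS and 371 and 447 with LPS+HACA. Both LPS libraries stood far above the rest, and LPS+HACA lay above control without overlap. The changes were 1.63 ± 0.22 with LPS (adjusted p = 0.00157) and −1.19 ± 0.22 with HACA (adjusted p = 0.0147), and 0.44 ± 0.21 between LPS+HACA and control (adjusted p = 0.493). Its antisense gene Rab10os shares 137 bases with it and had 2026 counts in all against 41152 for Rab10. Rab8a, a Rab of exocytosis and of macrophage surface ruffles, had 124 and 118 CPM in control, 201 and 266 with LPS and 122 and 126 with LPS+HACA. LPS was highest and the other groups overlapped, with 0.95 ± 0.22 for LPS (adjusted p = 0.0139) and −0.91 ± 0.22 for HACA (adjusted p = 0.0318). Rab8b, its more abundant relative, had 677 and 709 CPM in control, 1053 and 903 with LPS and 513 and 494 with LPS+HACA. All groups were apart, and LPS+HACA was lowest. Rab8b changed by 0.50 ± 0.19 with LPS (adjusted p = 0.0807, called with the replicate block at 0.49 and adjusted p = 0.0333, and with a sign that turned to −0.13 under library totals), by −0.96 ± 0.19 with HACA (adjusted p = 0.0183), and by −0.46 ± 0.19 between LPS+HACA and control (adjusted p = 0.389).

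Rab3a, the switch of regulated secretion in neurons, was scarce: 3.45 and 3.17 CPM in control, 0 and 0.193 with LPS and 0.668 and 0.676 with LPS+HACA. The groups were apart, with LPS lowest and LPS+HACA under control. Its summed counts were 103 for control, 2 for LPS and 21 for LPS+HACA, with 56.4% on retained introns. Since Rab3a reached the minimum only through control, these values are a description of its level and not a tested fall. Rab23, known from hedgehog signalling and the cilium and counted here mostly on retained introns, was the only gene of the last 4 (ciliary and other Rabs) to pass in the main fit with LPS (25.0%, where 30.1% of all genes passed). Of the same 4, Rab40c lay just outside (adjusted p = 0.0552, edgeR) and passed in several alternatives given below. Rab23 was less stable than its call implies, as described below. Rab23 had 3.07 and 2.38 CPM in control, 1.08 and 0.867 with LPS and 2.49 and 2.03 with LPS+HACA, and changed by −1.48 ± 0.44 with LPS (adjusted p = 0.0363). The LPS call of Rab10 held in each alternative. Rab8a was not called with LPS without control replicate 1 (adjusted p = 0.099) or 2 (0.116), and Rab23 was not called without any one of the 6 libraries (0.0534 to 0.187), with DESeq2 (0.0569) or with limma-voom (0.0603). The HACA calls of Rab10, Rab8a and Rab8b were lost without LPS+HACA replicate 1 (adjusted p = 0.126, 0.186 and 0.13) or 2 (0.0586, 0.148 and 0.116). Those of Rab8a and Rab8b were also lost without either control library (0.0874 and 0.0877, 0.0596 and 0.0591), and that of Rab8a without LPS replicate 2 (0.0671).

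The other 22 Rab genes passed in neither of the first 2 comparisons, with log2 fold changes of −2.36 to 1.44 for LPS and −1.41 to 1.48 for HACA. Rab21, Rab12, Rab18 and Rab9 were above control in both LPS libraries, and with the replicate block they passed as higher (adjusted p = 0.00958, 0.0205, 0.0367 and 0.0415), although under library totals Rab18 and Rab9 turned to −0.06 each. With HACA the sign of all 4 turned under library totals, from −0.61, −0.27, −0.48 and −0.63 to between 0.00 and 0.40. For LPS, Rab21 also passed with DESeq2 (adjusted p = 0.0304), RLE factors (0.0492) and library sizes from protein-coding genes (0.049). Rab12 also passed for LPS with DESeq2 (0.0402) and no count filter (0.0407). Rab40c, counted on non-coding transcripts, was below control in both LPS libraries (adjusted p = 0.0552 in the main fit). It passed as lower with the block (−1.61, adjusted p = 0.0189), DESeq2 (0.0366), limma-voom (0.0473), library totals (0.0105) and no count filter (0.00488). The scarce Rab42 had 40 counts over the control libraries, 5 over the LPS libraries and 22 over those of LPS+HACA, and it too entered only through control. The ends of the ranges above at −2.36 (LPS) and 1.48 (HACA) were both Rab42. Among the uncalled genes that entered without their highest group, Rab40c was at these ends, with −1.535 and 1.336.

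Ratios of raw counts of 2 Rab genes within one library do not depend on the scaling between libraries. The pairs were chosen after their values were seen, and 2 libraries against 2 cannot give an exact two-sided permutation p below 0.333, so they are a description. Rab10 to Rab31 was 0.444 and 0.622 in control, 3.14 and 4.19 with LPS and 0.892 and 1.08 with LPS+HACA. Rab32 to Rab7b was 3.05 and 1.08 in control, 22.8 and 17.3 with LPS and 4.33 and 3.24 with LPS+HACA. For both of these pairs LPS was far above the other groups, and LPS+HACA was nearer to control than to LPS. This did not hold for all 8 pairs computed. The ratio of Rab5a to Rab5b was 0.356 and 0.391, then 0.669 and 0.587, then 0.485 and 0.479 in the same order of groups. Rab6b to Rab6a went the other way, with 8.75 and 10.5 in control, 2.82 and 2.28 with LPS and 5.27 and 4.18 with LPS+HACA, which was nearer to LPS. Rab10 to Rab8b was 0.386 and 0.480 in control, 0.858 and 1.06 with LPS and 0.724 and 0.904 with LPS+HACA, so that LPS+HACA overlapped LPS and lay nearer to it than to control. Rab1b to Rab2a, at 0.726 and 0.694, 0.374 and 0.309, and 0.502 and 0.477, also had LPS+HACA nearer to LPS than to control. Rab4a to Rab4b was 1.38 and 1.09 in control, 0.531 and 0.194 with LPS and 1 and 0.671 with LPS+HACA, all apart. The first 4 pairs above did not overlap between groups, whereas Rab8a to Rab8b, at 0.183 and 0.166, 0.191 and 0.295, and 0.238 and 0.254, overlapped between LPS and LPS+HACA.

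**Figure D4:**
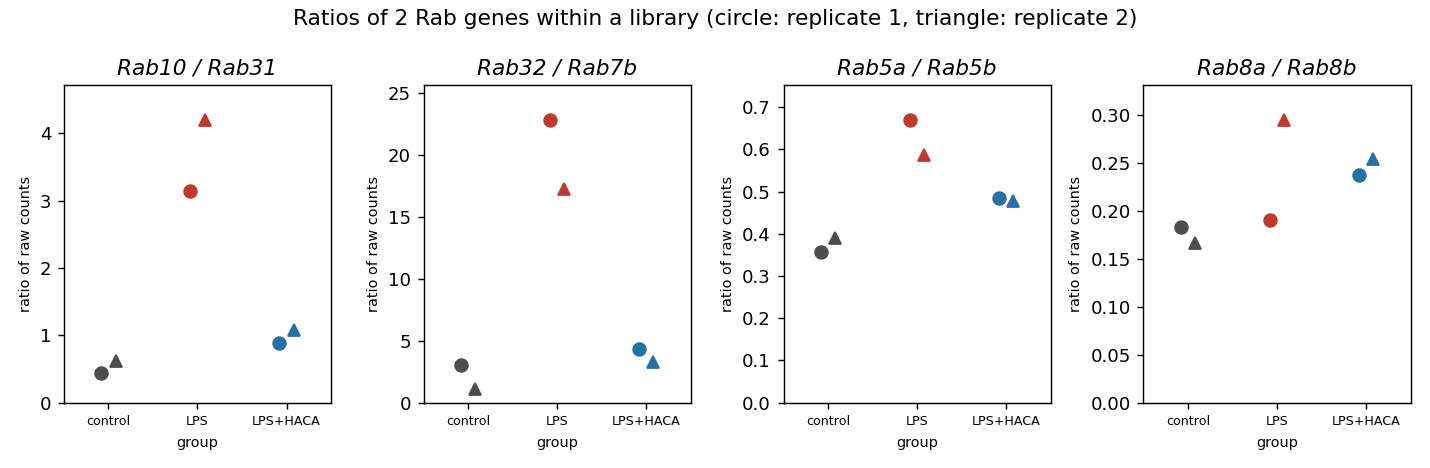
Ratio of raw counts of 2 Rab genes within each library (vertical axes from 0, a scale per pair), by group, with circles for replicate 1 and triangles for replicate 2. Rab10 to Rab31 is 3.14 and 4.19 in LPS against 0.444 and 0.622 in control, and Rab8a to Rab8b overlaps between LPS and LPS+HACA.

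The genes that control Rabs or act on their behalf were counted in 7 lists, chosen with earlier results of these data known. Of 137 that were tested, 20 were higher and 30 lower in LPS than in control (36.5%, where 30.1% of all genes passed), with a median log2 fold change of −0.23. Between LPS+HACA and LPS, 10 were higher and 7 lower (12.4%, where 13.4% of all genes passed), with a median of 0.21. Between LPS+HACA and control 0 were higher and 1 lower (0.73%, where 1.15% of all genes passed). Library totals gave 4 higher and 57 lower for LPS and 45 and 3 for HACA. The replicate block gave 19 higher and 19 lower for HACA. Of all 17113 genes, library totals called 1417 higher and 5111 lower for LPS and 3501 and 522 for HACA. The block called 1955 and 2356 of all genes for HACA. Fits without a control library (for LPS) or an LPS+HACA library (for HACA) leave 1 library in that group. Calls of the lists and of all genes were lost in them.

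Of 33 tested GEFs, 5 rose and 5 fell with LPS (30.3%, against 30.1% of all genes), and 2 were higher and 3 lower with HACA (15.2%, against 13.4%). Rabgef1 and Rin2, which activate Rab5, went from 3.37 ± 0.466 and 1.78 ± 0.935 CPM (SD, n = 2) in control to 9.28 ± 2.81 and 5.60 ± 0.531 in LPS, and were at 2.71 ± 0.477 and 1.54 ± 0.0261 in LPS+HACA. They rose with LPS by 1.46 ± 0.36 and 1.64 ± 0.44 (adjusted p = 0.0178 and 0.0257, edgeR) and changed with HACA by −1.78 ± 0.36 and −1.86 ± 0.45 (adjusted p = 0.0198 and 0.0332). Rab3il1, which activates Rab8 and binds Rab3a, fell from 19.6 ± 2.06 to 0.291 ± 0.133 CPM and was at 4.24 ± 0.503 in LPS+HACA. It was lower than control also in LPS+HACA (−2.21 ± 0.31, adjusted p = 0.0208), the 1 call of these lists in the third comparison. On coding transcripts alone 0 were left, where 55 of all 9089 genes were higher and 12 lower. Fits without a control or LPS+HACA library leave 1 library in that group. In those fits this call and most calls of all genes were lost. Madd, which activates Rab3 and Rab27, was at 17.8 ± 0.074, 5.45 ± 0.0515 and 16.5 ± 1.52 CPM in control, LPS and LPS+HACA, with −1.71 ± 0.25 for LPS (adjusted p = 0.00229) and 1.59 ± 0.25 for HACA (adjusted p = 0.00935). At most 0.526% of the counts of Rabgef1, Madd and Rin2 and 36.1% of those of Rab3il1 were on coding transcripts.

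Of 37 tested GAPs, 6 rose and 9 fell with LPS (40.5%, against 30.1% of all genes), and 2 were higher and 2 lower with HACA (10.8%, against 13.4%). Tbc1d1, a GAP whose substrates include Rab10, went from 3.08 ± 0.613 CPM in control to 20.1 ± 2.30 in LPS and was at 4.65 ± 2.18 in LPS+HACA (2.70 ± 0.39, adjusted p = 0.00212, and −2.10 ± 0.38, adjusted p = 0.0139). Tbc1d10b rose from 108 ± 19.6 to 278 ± 42.8 CPM (1.36 ± 0.23, adjusted p = 0.00415) and passed as lower with HACA with the block (adjusted p = 0.0236, and 0.0734 without it), and Tbc1d17 was lower in LPS+HACA, at 13.7 ± 2.44 CPM, than in LPS, at 34.0 ± 5.94 (−1.31 ± 0.26, adjusted p = 0.0188). Tbc1d2, a GAP for Rab7, was at 26.9 ± 4.91, 3.51 ± 0.0823 and 18.4 ± 3.49 CPM (−2.94 ± 0.30, adjusted p = 0.000499, and 2.39 ± 0.29, adjusted p = 0.00502). Tbc1d16, a GAP for Rab4, was at 34.1 ± 7.88, 6.60 ± 2.79 and 22.7 ± 11.5 CPM (−2.37 ± 0.45, adjusted p = 0.00656, and 1.78 ± 0.44, adjusted p = 0.037). Of 7 tested genes of the Rab cycle of membrane extraction and lipid modification, 1 fell with LPS (14.3%, against 30.1%) and none passed with HACA.

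Of 41 tested effectors, 8 rose and 7 fell with LPS (36.6%, against 30.1% of all genes), and 3 were higher and 2 lower with HACA (12.2%, against 13.4%). The Rab11 effector Rab11fip1 went from 18.2 ± 1.41 CPM to 489.6 ± 316 in LPS and was at 34.6 ± 6.47 in LPS+HACA (4.75 ± 0.49, adjusted p = 0.000612, and −3.82 ± 0.46, adjusted p = 0.0055). Rab11fip5, of the same family, went the other way, at 37.9 ± 5.01, 4.42 ± 1.10 and 21.3 ± 3.95 CPM (−3.10 ± 0.31, adjusted p = 0.000472, and 2.27 ± 0.30, adjusted p = 0.00569). Appl1, an effector of Rab5, was at 84.9 ± 18.4, 422 ± 78.0 and 155 ± 10.7 CPM (2.32 ± 0.25, adjusted p = 0.000656, and −1.45 ± 0.24, adjusted p = 0.0112). Plekhm1, an effector of Rab7, was at 257 ± 32.1, 46.2 ± 2.44 and 133 ± 17.6 CPM (−2.48 ± 0.23, adjusted p = 0.000347, and 1.53 ± 0.22, adjusted p = 0.00715). With the block Appl1 was higher (0.87, adjusted p = 0.0403) and Plekhm1 lower (−0.95, adjusted p = 0.0125) in LPS+HACA than in control. The LPS calls of these 4 genes held in each of 14 alternatives, as did the HACA calls of Rab11fip1, Rab11fip5 and Plekhm1.

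A list of 10 tether genes held subunits of HOPS, which acts at late endosomes and lysosomes, and of CORVET, which acts at early endosomes, and also Vps33b and its partner Vipas39, which form a separate complex. Of these 10 genes 4 fell with LPS and none rose (40%, against 30.1% of all genes), and 1 was higher with HACA (10%, against 13.4%). Vps39 was at 24.2 ± 0.542, 5.03 ± 1.39 and 13.9 ± 0.62 CPM (−2.27 ± 0.29, adjusted p = 0.00123, and 1.47 ± 0.28, adjusted p = 0.0172), with none of its counts on coding transcripts. Vipas39 fell from 8.56 ± 1.73 to 2.77 ± 0.714 CPM (adjusted p = 0.0108), and on coding transcripts alone did not pass (adjusted p = 0.539). All 3 genes of Rab phosphorylation changed with LPS, 1 higher and 2 lower (100%, against 30.1% of all genes). With HACA 2 of the 3 were higher (66.7%, against 13.4%). Lrrk2, the kinase of Rab8a and Rab10, rose from 19.2 ± 5.38 to 44.1 ± 10.1 CPM (1.20 ± 0.35, adjusted p = 0.0356) and was at 19.6 ± 7.48 in LPS+HACA (adjusted p = 0.0636, and 0.0139 with the replicate block). Ppm1h, the phosphatase that removes this mark, was at 220.2 ± 8.38, 84.1 ± 8.08 and 148 ± 10.5 CPM (−1.39 ± 0.20, adjusted p = 0.0022, and 0.81 ± 0.20, adjusted p = 0.0361). Lrrk1, a kinase of Rab7, was at 93.9 ± 9.01, 34.4 ± 9.29 and 81.6 ± 0.0826 CPM (−1.45 ± 0.25, adjusted p = 0.00447, and 1.25 ± 0.25, adjusted p = 0.0193). Of 6 tested Rab-like genes, 2 fell with LPS (33.3%, against 30.1%) and none passed with HACA: Cracr2a, a large Rab with calcium-binding motifs, from 13.4 ± 0.775 to 3.66 ± 0.402 CPM (adjusted p = 0.00922), and Ift22, of ciliary transport, from 14.2 ± 1.31 to 6.29 ± 1.27 (adjusted p = 0.0156), which with the replicate block was also higher with HACA (adjusted p = 0.0477).

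Several of these calls were lost without a single library. For LPS against control these were Rabgef1 without control replicate 1 (adjusted p = 0.0916), control replicate 2 (0.137) or LPS replicate 2 (0.0628), Rin2 without control replicate 2 (0.162) or LPS replicate 2 (0.0611), and Lrrk2 without control replicate 1 (0.0828), control replicate 2 (0.22) or LPS replicate 2 (0.11). Ift22 was lost without control replicate 1 (0.0716) or 2 (0.118), Vipas39 without control replicate 1 (0.0892), and Tbc1d10b and Cracr2a without control replicate 2 (0.057 and 0.064). For HACA, without LPS+HACA replicate 1 or 2 the adjusted p was 0.0895 and 0.0562 for Appl1, 0.0518 and 0.0615 for Madd, 0.141 and 0.0806 for Rabgef1, 0.168 and 0.138 for Rin2, 0.155 and 0.0708 for Tbc1d17, 0.095 and 0.0724 for Vps39, 0.0905 and 0.086 for Lrrk1, and 0.131 and 0.192 for Ppm1h. It was 0.191 for Tbc1d16 without LPS+HACA replicate 1 and 0.0713 for Tbc1d1 without replicate 2. Without control replicate 1 or 2 the HACA calls of Rabgef1, Tbc1d16, Tbc1d17, Vps39, Lrrk1 and Ppm1h were lost (adjusted p = 0.052 to 0.102), and without LPS replicate 2 those of Rin2 (0.0682), Tbc1d16 (0.137) and Ppm1h (0.075). Library totals ended the LPS calls of Rabgef1, Rin2 and Lrrk2 (adjusted p = 0.0916, 0.112 and 0.252) and the HACA calls of Appl1, Rin2 and Tbc1d17 (0.0676, 0.0852 and 0.0865), and limma-voom the HACA call of Tbc1d16 (0.0584).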

How the data were processed

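Libraries were made from poly-A RNA with a TruSeq protocol, per the labels. The submitters' processing notes name GRCm38, GRCh38, Trim Galore, STAR 2.5.4b, edgeR 3.28.1 and DESeq2 1.26.0 without roles, and no source used here names the counting program. The authors deposited whole-number counts for each transcript, which were used here. They also deposited FPKM values, which equalled the count over transcript length and one factor per library within 1% for at least 99.66% of transcripts with at least 50 counts, and which were not used in any test. The planned unit was the gene, so transcript counts were summed per gene with GENCODE vM21: 141524 of 142647 transcripts matched, and the unmatched ones (up to 0.115% of any library) were left out. Transcripts with at least 100 bases of their own held 99.2% of the counts. Genes were filtered with filterByExpr and scaled by TMM, and a single edgeR 4.0.16 quasi-likelihood model (robust, group as the only term, 3 residual degrees of freedom, R 4.3.3) was fitted to all 6 libraries and 17113 genes, after a test on simulated data. Genes were called at a Benjamini-Hochberg adjusted p under 0.05. The SE is the absolute log2 fold change over the square root of F, and can be under the counting error for scarce genes.

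The 42 Rab genes and all lists were chosen with earlier results of these data known. Named were every Rab gene called in either of the first 2 comparisons, the 3 uncalled ones with the highest level per length, and at most 2 genes per list, direction and comparison, those with the largest change among called genes with at least 5 CPM and no overlap. Genes named beyond this rule (Rab7, Rab9, Rab12, Rab18, Rab21, Rab40c and Rab42) were chosen after their values were seen. Alternatives were RLE factors, library totals, no filter, sizes from protein-coding genes, DESeq2 1.42.0, limma-voom 3.58.1, a replicate block, each library left out and an adjusted p under 0.1, and, added after seeing the data, coding transcripts only. Replicate numbers come from the titles, which do not say what a number shares. Deviations of same-numbered libraries correlated at 0.308 (control and LPS), 0.509 (control and LPS+HACA) and 0.498 (LPS and LPS+HACA), which met the limit of 0.1 set for taking the numbers as pairs. The main model nevertheless holds no term for the number, so its calls, SEs and p-values ignore it. The fit with the block is an alternative, given where it changes the call of a named gene. A gene among the marker lists is not reported here.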

Additional observations from a re-analysis of the deposited data

How the results depend on the processing

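Counts of called Rab genes are given as higher and lower for LPS against control, then for LPS+HACA against LPS; the main counts were 10 and 9, then 0 and 7. Library totals gave 2 and 13, then 9 and 0 (of all 17113 genes, 1417 and 5111, then 3501 and 522). No count filter gave 6 higher in the second comparison, protein-coding sizes 1, DESeq2 3, an adjusted p under 0.1 gave 5, and coding transcripts only gave 2 and 4. In the same order, 1845 of all 29118 genes, 678 of 11253, 1221 of 17113, 1843 of 17113 and 407 of 9089 were higher. The replicate block (pairing by replicate number) gave 17 and 10, then 4 and 13 (of all 17113 genes, 3506 and 3384, then 1955 and 2356). Leaving out 1 library gave 2 to 11 higher and 4 to 8 lower, then 0 to 4 and 0 to 9. For LPS+HACA against control, with none called, no count filter gave 1 lower, the block 2, and leaving out 1 library 0 to 1. For the 137 regulators and effectors (20 and 30, then 10 and 7, and 0 and 1 for LPS+HACA against control), library totals gave 4 and 57, then 45 and 3, and coding transcripts only gave 17 lower for LPS and 0 in the third comparison. No count filter gave 17 higher in the second and 2 and 5 in the third. The block gave 19 and 19, then 1 and 3. DESeq2 gave 14 lower and 3 lower. An adjusted p under 0.1 gave 21 and 16, then 2 lower. Of all 29118 genes, no count filter gave 1845 higher in the second and 661 and 250 in the third. Of all 17113 genes, the block gave 1955 and 2356, then 628 and 307. For these genes DESeq2 gave 1799 lower and 199 lower. An adjusted p under 0.1 gave 1843 and 1975 of them, then 110 lower. Of all 9089 genes on coding transcripts, 1241 were lower for LPS, and 55 higher and 12 lower in the third. Leaving out 1 library gave 5 to 22 and 13 to 34, then 4 to 19 and 2 to 12, then 0 to 1 and 0 to 4. Under library totals the sign turned for 9 Rab genes in LPS against control (Rab33a to −0.57, Rab4b −0.56, Rab7 −0.32, Rab1a −0.30, Rab6a −0.29, Rab5b −0.17, Rab8b −0.13, Rab9 and Rab18 −0.06) and for 8 in LPS+HACA against LPS (Rab1b to 0.48, Rab12 0.40, Rab33a 0.23, Rab29 0.18, Rab18 0.15, Rab5b 0.14, Rab21 0.02 and Rab9 0.00). Every fit without 1 library leaves a single library in a group. The calls of all genes also rose and fell across those fits. The ranges given for leaving out 1 library are therefore not a property of the Rab genes or the lists alone. No called Rab gene changed sign in any of the alternatives. The causes of the lost calls were not tested, beyond the fewer samples or genes that some alternatives leave. Among the Rab genes, 21 had under 10 CPM in each group, where depth limits what can be detected.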
